A study of Mus musculus with 6 samples.

Results

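Transcripts of the Kv4 potassium channel complex were measured in the cerebellum of mice, either wild type or transgenic for daDREAM. The complex comprises 9 genes: the calcium sensors Kcnip1, Kcnip2, Kcnip3 and Kcnip4, the pore subunits Kcnd1, Kcnd2 and Kcnd3, and the accessory subunits Dpp6 and Dpp10. All probe sets that the platform annotation assigns to exactly 1 gene symbol, one of these 9, were taken. This gave 27 of the 45037 probe sets tested and 9 of 18193 genes. The rule uses no measured value, although the genes were proposed with earlier results of these data known. The wild-type group held 3 arrays and the daDREAM group 3 arrays, each an independent biological replicate on an Affymetrix mouse genome array. Frozen dissected tissue was used, not cultured cells, and the signals are RMA values on a log2 scale. DREAM is the protein of Kcnip3, and daDREAM is a mutant that represses transcription irrespective of calcium. The sources used here do not give the promoter or species of the transgene, nor the age, sex or strain of the mice.

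Kv4 channels carry the fast, transient A-type potassium current that delays firing and limits the spread of signals through dendrites. The pore is formed by Kv4 subunits. KChIP proteins, members of the neuronal calcium sensor family with EF-hand calcium-binding loops, bind its cytoplasmic end and raise its surface expression, and DPP6 and DPP10, peptidase relatives without catalytic activity, span the membrane beside it and speed its gating. Cerebellar granule cells are known for a strong A-type current. Kcnip3 has a further role, since its protein DREAM binds downstream regulatory elements in DNA as a repressor and leaves them when calcium rises. The comparison asks whether the channel complex that DREAM itself belongs to is altered at the transcript level when a calcium-insensitive DREAM is present.

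The promoters of the members are shown first, because DREAM acts on DNA elements whose core is GTCA. RefSeq sequences of build GRCm38.p6, each from 250 bases before to 50 after an annotated start, matched 8 of the 9 genes with 15 starts, all but Kcnd1. The core, searched as GTCA on both strands, lay in 12 of the 15 windows and in 85.2% of 32851 promoter windows of the same length. The Kcnip3 starts and the single starts of Kcnd2 and Kcnd3, the pore genes with the brightest signals, are given 5′ to 3′ in the direction of transcription, with GTCA and its reverse complement TGAC in capitals.
Kcnip3, chr2:127522045-127522344, minus strand: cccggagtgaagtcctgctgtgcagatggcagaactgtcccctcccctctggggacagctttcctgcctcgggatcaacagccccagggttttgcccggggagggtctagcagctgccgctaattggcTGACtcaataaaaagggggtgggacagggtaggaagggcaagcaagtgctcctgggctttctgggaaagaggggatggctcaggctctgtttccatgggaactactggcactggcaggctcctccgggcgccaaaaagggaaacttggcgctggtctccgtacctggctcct
Kcnip3, chr2:127521343-127521642, minus strand: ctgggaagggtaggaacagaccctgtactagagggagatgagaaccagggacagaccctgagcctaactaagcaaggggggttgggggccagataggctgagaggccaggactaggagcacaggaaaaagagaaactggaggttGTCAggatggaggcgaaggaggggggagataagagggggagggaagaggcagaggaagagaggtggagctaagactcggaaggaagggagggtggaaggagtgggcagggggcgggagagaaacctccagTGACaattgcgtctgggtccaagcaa
Kcnip3, chr2:127482450-127482749, minus strand: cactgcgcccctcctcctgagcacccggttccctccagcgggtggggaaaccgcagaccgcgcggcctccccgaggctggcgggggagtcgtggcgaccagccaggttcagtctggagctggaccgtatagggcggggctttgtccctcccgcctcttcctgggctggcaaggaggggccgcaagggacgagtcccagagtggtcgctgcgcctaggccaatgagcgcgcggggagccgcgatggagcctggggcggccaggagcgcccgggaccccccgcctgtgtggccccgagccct
Kcnd2, chr6:21215096-21215395, plus strand: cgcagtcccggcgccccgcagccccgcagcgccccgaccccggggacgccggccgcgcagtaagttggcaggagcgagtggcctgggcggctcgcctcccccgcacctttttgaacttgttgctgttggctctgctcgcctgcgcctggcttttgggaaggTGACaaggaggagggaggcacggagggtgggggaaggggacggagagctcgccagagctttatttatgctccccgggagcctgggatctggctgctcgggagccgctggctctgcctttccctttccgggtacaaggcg
Kcnd3, chr3:105451640-105451939, plus strand: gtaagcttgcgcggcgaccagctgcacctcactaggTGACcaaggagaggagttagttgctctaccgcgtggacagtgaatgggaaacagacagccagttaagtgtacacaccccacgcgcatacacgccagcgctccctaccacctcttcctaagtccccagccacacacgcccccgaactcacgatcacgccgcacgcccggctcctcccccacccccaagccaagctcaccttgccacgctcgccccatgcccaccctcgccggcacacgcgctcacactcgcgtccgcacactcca
The Kcnip3 start at 127521343 held 2 cores, that at 127522045 held 1 and that at 127482450 held 0. Kcnd2 and Kcnd3 held 1 each. The core of the start at 127522045 lies within TGAGTCA, the AP-1 motif, on the opposite strand (printed as TGACTCA), and it was the 1 match to that motif among the 15 windows, against 5.20% of all windows. The cyclic AMP response element TGACGTCA, which contains the core, was in 0 of the 15 windows (1.79% of all). The longer form GTCAAGG was in 0 of the 15 (3.18% of all). These are matches of letters only, and probe sets could not be assigned to starts. Sequence more than 50 bases after a start was not searched, so elements further downstream are not counted.

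Arrays differed in the spread of their values more than in their middle. Array medians ran from 5.12 to 5.23, while the interquartile range ran from 2.97 in daDREAM replicate 3 to 3.49 in daDREAM replicate 1, with wild type at 3.10 to 3.38. The hybridization controls, RNA added in fixed amounts, averaged 8.99 to 9.48 in wild type and 9.47 to 10.47 in daDREAM. The 3′ minus 5′ signal of Actb, a measure of RNA integrity, was 0.78 to 0.79 in wild type and 0.58 to 0.96 in daDREAM. The tissue label was checked against markers. The granule cell gene Gabra6 averaged 12.05 (wild type) and 11.99 (daDREAM), and the Purkinje cell gene Pcp4 12.63 and 12.62. Of 4 forebrain markers 3 were dim, among them Neurod6 and Tbr1 at 3.04 and 2.75 in wild type. The other, Ppp1r1b, was bright, at 9.02 in wild type and 9.07 in daDREAM, so this list did not read as dim throughout. All 9 choroid plexus markers were higher in daDREAM, with mean levels of 6.13 to 6.39 in wild type and 6.54 to 6.91 in daDREAM, led by a difference of 1.07 in Sostdc1. Of 7 microglia markers 6 were higher, with mean levels of 6.29 to 6.39 and 6.47 to 6.58. Whether either set had a part in any member's value was not tested.

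Signals of the members fell into bright and dim probe sets. The files carry no detection call, so 44 probe sets of 39 olfactory receptor genes, not expected in cerebellum, served as a reference. Their means over the 6 arrays ran from 2.78 to 5.24 (log2), with a 95th percentile of 4.79. Of the 27 member probe sets, 21 lay above that percentile and 6 did not, against 56.0% of all probe sets above it, and 19 lay above the highest olfactory value. The 6 dim probe sets were 1 of Kcnip1, 2 of Kcnip2, 1 of Kcnd1, 1 of Kcnd2 and 1 of Kcnd3. Each gene except Kcnip2 and Kcnd1 had a probe set with a mean over 8. The brightest of Kcnip2 reached 5.29 and that of Kcnd1 5.75.

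**Figure D1:**
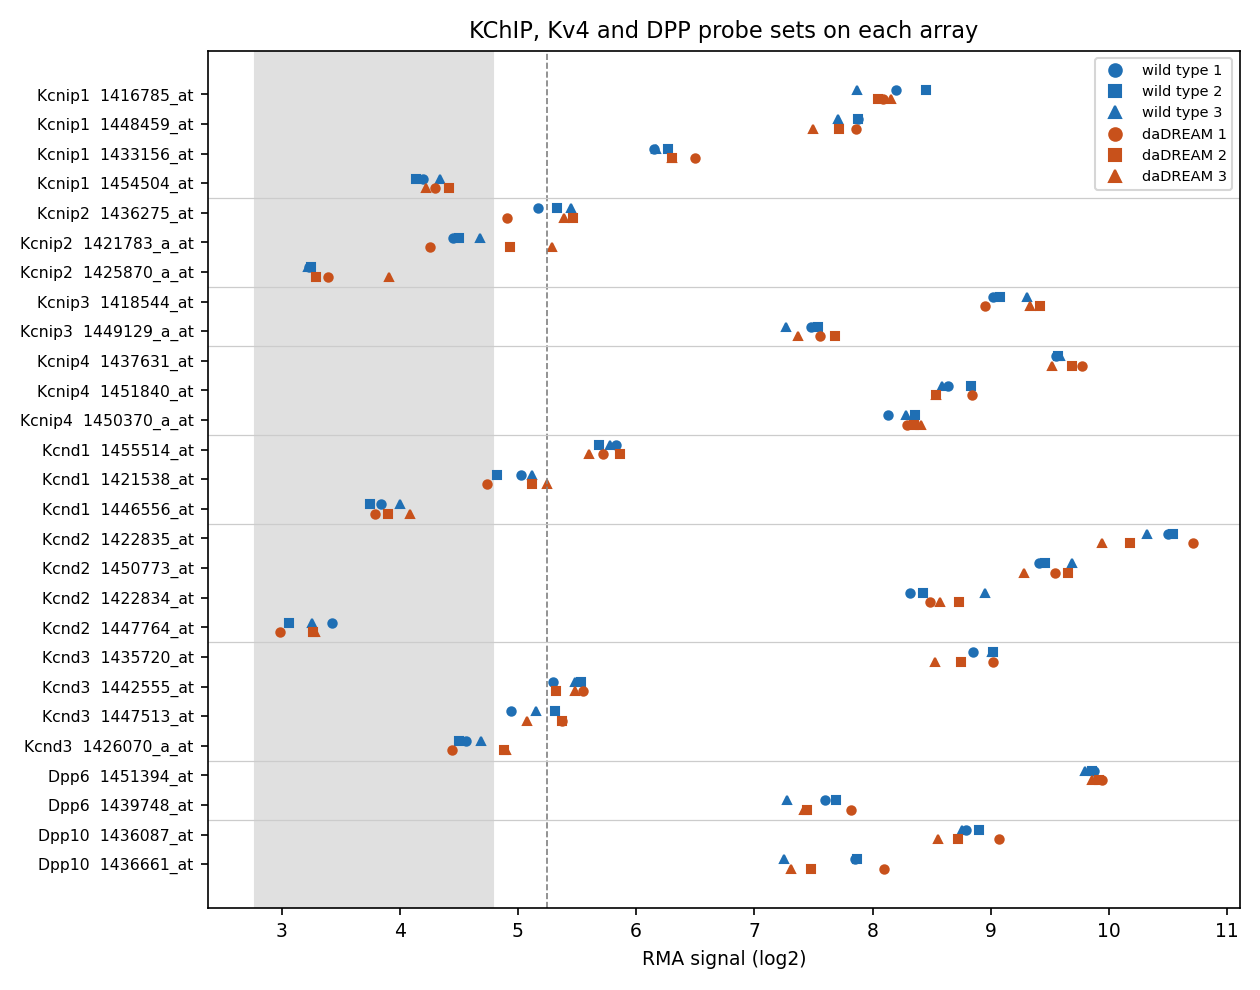
Each row is a probe set of a KChIP, Kv4 or DPP gene, and each point an array's RMA signal (log2; blue wild type, orange daDREAM). The grey band runs from the lowest olfactory receptor probe set at 2.78 to their 95th percentile at 4.79 and the dashed line marks their highest at 5.24; most rows lie to the right, and the genotypes are intermixed in nearly all of them.

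Taking each gene by its brightest probe set, the mean signal over the 6 arrays was 10.37 for Kcnd2, 9.88 for Dpp6 and 9.62 for Kcnip4. Kcnip3 followed at 9.19, Kcnd3 at 8.86, Dpp10 at 8.80 and Kcnip1 at 8.14. Kcnd1 at 5.75 and Kcnip2 at 5.29 came last. This is an order of probe set signals and not of transcript amounts, since probes differ in affinity. Ranges of most neighbours did not overlap. The exceptions were these: the array ranges of Kcnd3 (8.53 to 9.02) and Dpp10 (8.55 to 9.07) overlapped almost entirely, that of Kcnip3 (8.95 to 9.42) reached into both, and the lowest Kcnd2 array equalled the highest Dpp6 array (9.94). Dpp6 (9.80 to 9.94) lay above Kcnip4 (9.52 to 9.77), and Kcnip4 above Kcnip3, on every array.

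No member passed the limma test between the genotypes. Of the 27 probe sets, 0 reached an adjusted p under 0.05 (background 0.00% of all tested) and 0 an unadjusted p under 0.05 (background 1.81%). With a trended and robust prior these counts were again 0 (background 1.77% unadjusted). Each had an adjusted p of 0.998. Differences, always daDREAM minus wild type in log2 units, ran from -0.19 to 0.30, and 16 were above 0 and 11 below (47.3% of all probe sets were below). After renewed quantile normalization 8 of the 27 were below (48.9% of all probe sets in that setting). By role, the KChIP genes had 8 probe sets above 0 and 4 below, the Kv4 genes 6 and 5, and the DPP genes 2 and 2. The median over the 27 was 0.04, against 0.01 over all probe sets. Of the 21 member probe sets above the olfactory receptor percentile, 11 were above 0 and 10 below, with a median of 0.01. By the brightest probe set of each gene 6 of the 9 genes were lower in daDREAM, against 48.0% of all genes, dim ones included, with a median of -0.04. All 9 of these probe sets had a mean of at least 5. Of all probe sets at that level 54.6% were lower, with a median of -0.02. By the mean over a gene's probe sets 2 of the 9, Kcnd2 and Dpp10, were lower, with a median of 0.03, so the direction of the group turned with the choice of probe set. That mean takes in the dim probe sets. The genotypes did not overlap in 2 of the 27 (background 6.01%), both higher in daDREAM (3.75% of all probe sets were of that kind). They were 1433156_at of Kcnip1 and the dim 1425870_a_at of Kcnip2.

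The intervals bound the change in signal, and they are read here for the 21 probe sets above the olfactory receptor percentile, since a dim signal may not follow its transcript. All 21 of the 95% intervals lay within a 2-fold change in either direction, as did 98.0% of those over all probe sets, dim ones included. Of the 21, 19 lay within a 1.5-fold change, and the exceptions were 1422835_at of Kcnd2 and 1436661_at of Dpp10. These bounds hold for the fit with no covariate. With the hybridization controls as a covariate some estimates left their interval, such as 0.77 for 1436661_at, whose interval ran from -0.59 to 0.54. The 6 dim probe sets also gave intervals within a 2-fold change in signal, which sets no bound for their transcripts. In whole tissue, fewer cells of a type and less RNA per cell cannot be told apart, and a change confined to a small group of cells would be diluted.

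**Figure D2:**
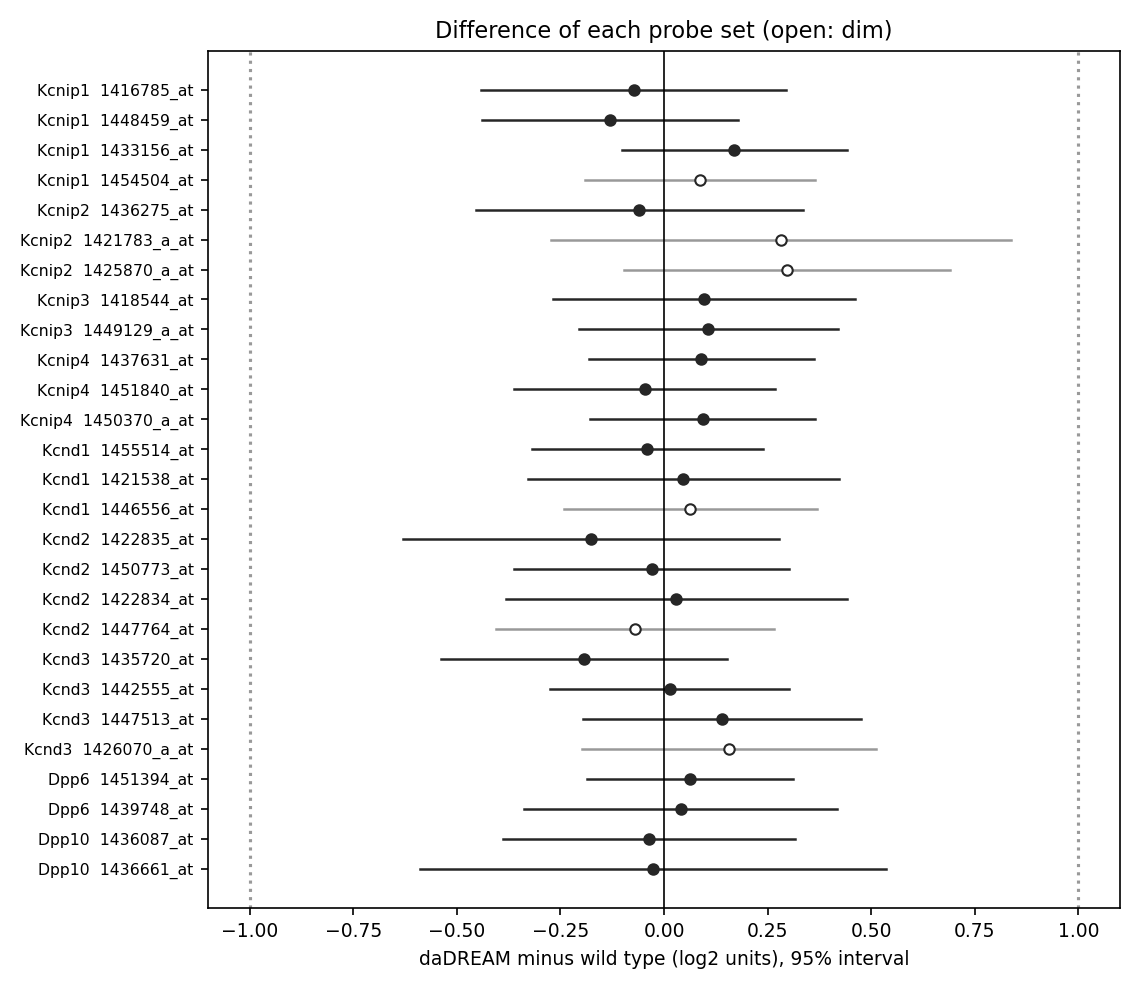
The difference daDREAM minus wild type (log2 units) of each probe set is shown with its 95% interval from limma, with open circles for the 6 dim probe sets and dotted lines at a 2-fold change. Every interval includes 0 and stays inside the dotted lines; the widest belongs to Dpp10 1436661_at, from -0.59 to 0.54.

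Kcnip3, the gene of DREAM itself, whose printed starts held 0, 1 and 2 GTCA cores, was read by 2 probe sets that the platform ties to the same mRNA record. Probe set 1418544_at read 9.02, 9.08 and 9.31 on wild-type replicates 1 to 3 and 8.95, 9.42 and 9.33 on daDREAM replicates 1 to 3. The lowest and the highest array were both daDREAM, so the groups overlapped. The second, 1449129_a_at, read 7.48, 7.54 and 7.27 in wild type and 7.56, 7.68 and 7.37 in daDREAM. Here wild-type replicate 3 was lowest, and daDREAM replicates 1 and 2 lay above every wild-type array. The differences were close in size, 0.10 ± 0.16 and 0.11 ± 0.14 (SE), yet over the 6 arrays the pair did not track each other (Pearson r = -0.14, a description over arrays that share their normalization). The upper ends of the intervals correspond to 1.38-fold and 1.34-fold. Whether these probes match the transgene's RNA is not known here, so they do not check the genotype labels. Without daDREAM replicate 1 the difference of 1418544_at was 0.24 (limma adjusted p = 0.403) and the genotypes did not overlap there, as in 32.7% of all probe sets in that setting.

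Kcnip4, whose isoforms include one that slows Kv4 inactivation, had 3 bright probe sets. Probe set 1437631_at read 9.55, 9.57 and 9.59 in wild type and 9.77, 9.69 and 9.52 in daDREAM. The wild-type arrays lay within 0.04 of each other, and the daDREAM arrays fell on both sides of them. Its difference was 0.09 with a 95% interval from -0.18 to 0.36. Probe sets 1450370_a_at and 1451840_at differed by 0.09 and -0.05, so the 3 did not share a sign.

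Kcnip1, a KChIP found in inhibitory neurons among others, had 4 probe sets, 2 of them tied to 1 mRNA record and 2 to a separate cDNA. The first pair, at means of 8.14 and 7.76, differed by -0.07 and -0.13. The second pair, at 6.28 and a dim 4.27, differed by 0.17 and 0.09. Of the second pair, 1433156_at read 6.15, 6.27 and 6.17 in wild type and 6.50, 6.30 and 6.30 in daDREAM. All 3 daDREAM arrays were above all wild-type arrays, the nearest by 0.03, which is small beside the SE of 0.12, and the unadjusted p was 0.189. Whether the pairs differ from each other in their response was not tested.

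Kcnip2, the KChIP that is best known from the heart, was at or near the olfactory receptor range in all 3 probe sets. The brightest, 1436275_at, read 5.17, 5.33 and 5.45 in wild type and 4.91, 5.47 and 5.39 in daDREAM, a difference of -0.06. The other two, 1421783_a_at and 1425870_a_at, were dim and differed by 0.28 and 0.30, the largest differences among the members. In both, daDREAM replicate 3 was the highest array, at 5.29 and 3.91. Without that array the differences were 0.05 and 0.11, and with the hybridization controls as a covariate -0.49 and 0.02. Probe set 1425870_a_at read 3.23, 3.25 and 3.22 in wild type against 3.39, 3.29 and 3.91 in daDREAM, without overlap, with an interval from -0.10 to 0.69.

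Kcnd2, the Kv4.2 pore subunit of granule cells and many principal neurons, gave the brightest signal of the complex. Probe set 1422835_at read 10.50, 10.54 and 10.32 in wild type and 10.71, 10.18 and 9.94 in daDREAM. The daDREAM arrays spanned 0.77, with replicate 1 above and replicates 2 and 3 below every wild-type array. The difference was -0.18 ± 0.20 (SE), with an interval that reaches from 0.646-fold to 1.21-fold. The other bright probe sets of the gene, 1450773_at and 1422834_at, differed by -0.03 and 0.03. In 1422834_at the highest array was wild-type replicate 3, at 8.95 against 8.32 to 8.73 on the others. The dim 1447764_at, at 3.22, differed by -0.07.

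Kcnd3, the Kv4.3 subunit, had the most negative difference among the members, which did not pass the test. Probe set 1435720_at read 8.85, 9.02 and 9.01 in wild type and 9.02, 8.75 and 8.53 in daDREAM. Again daDREAM replicate 1 stood with the top wild-type arrays while replicates 2 and 3 were below all of them. The difference was -0.19 ± 0.15 (SE, unadjusted p = 0.233). The other 3 probe sets of Kcnd3 were much dimmer, with means from 4.66 to 5.44, and differed by 0.01, 0.14 and 0.16.

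Kcnd1, the Kv4.1 subunit, was dim to moderate in its 3 probe sets, with means of 5.75, 5.01 and 3.90. Probe set 1455514_at read 5.83, 5.69 and 5.78 in wild type and 5.72, 5.86 and 5.60 in daDREAM. The arrays of the genotypes were intermixed within 0.26. The 3 differences were -0.04, 0.05 and 0.06.

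Dpp6, the accessory subunit with the brightest signal, gave the most repeatable reading of the complex. Probe set 1451394_at read 9.87, 9.86 and 9.80 in wild type and 9.94, 9.92 and 9.86 in daDREAM. Its SD over all 6 arrays was 0.05, at percentile 1.3 of all probe sets. The difference was 0.06 with an interval from -0.19 to 0.31. Probe set 1439748_at read lower, at 7.54, and differed by 0.04.

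Dpp10, the second accessory subunit, differed by -0.04 and -0.03 in its 2 probe sets. Probe set 1436087_at read 8.79, 8.90 and 8.76 in wild type and 9.07, 8.72 and 8.55 in daDREAM. Probe set 1436661_at read 7.85, 7.87 and 7.25 in wild type and 8.10, 7.48 and 7.31 in daDREAM, an SD over the 6 arrays at percentile 90.6 of all probe sets. In both, daDREAM replicate 1 was highest. The pair correlated at r = 0.85 over the 6 arrays.

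Several members varied with the spread of the values on an array. The Kcnd2 probe set 1422835_at and the Dpp10 probe set 1436087_at ordered the 6 arrays in the same way, from daDREAM replicate 1 down through wild-type replicates 2, 1 and 3 to daDREAM replicates 2 and 3. The interquartile ranges of those arrays were 3.49, 3.38, 3.27, 3.10, 3.15 and 2.97. Their correlations with the interquartile range over the 6 arrays were 0.95 and 0.96, and that of Kcnip4 1451840_at was 0.92. Other probe sets ran the opposite way, with -0.85 for Kcnip3 1418544_at, -0.91 for Kcnip2 1421783_a_at and -0.98 for Kcnd1 1421538_at. Probe sets of 1 gene could take opposite sides: for Kcnd3, 1435720_at gave 0.74 and 1426070_a_at gave -0.91, and these differed between genotypes by -0.19 and 0.16. These correlations describe 6 arrays that share their normalization, and the part of array spread in the differences was not tested.

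**Figure D3:**
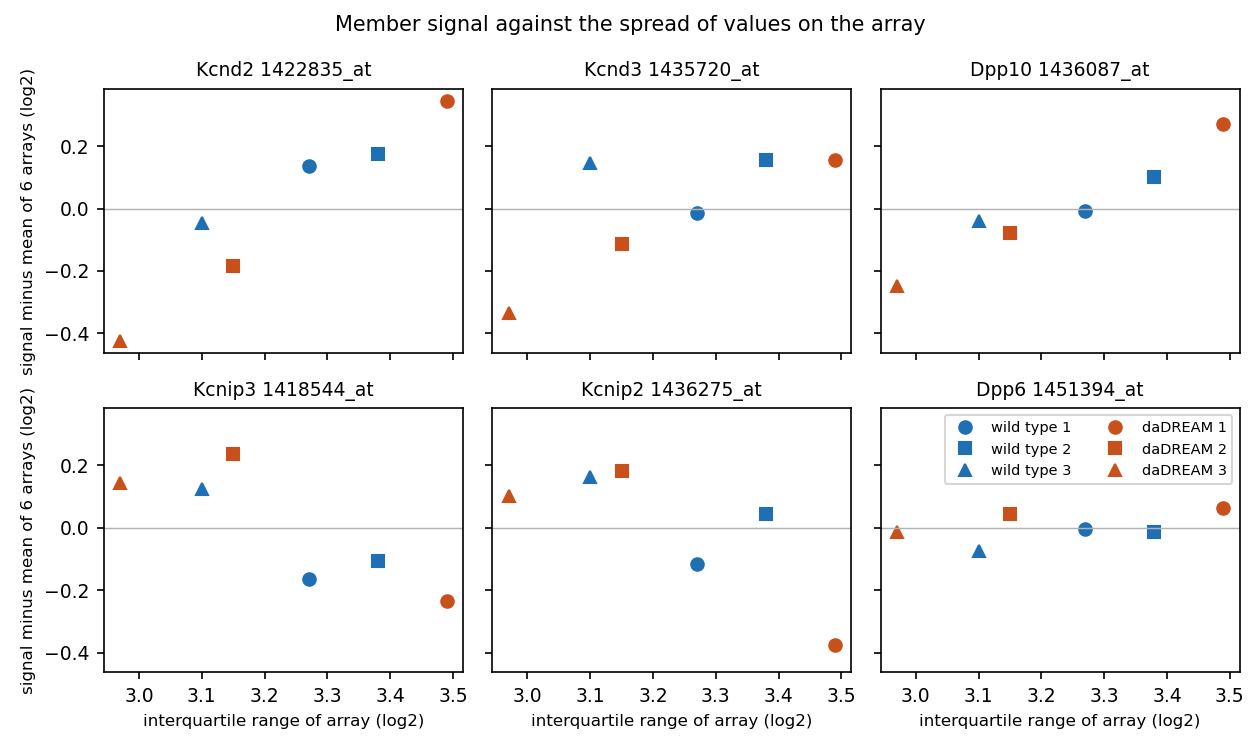
The signal of 6 member probe sets, as the deviation from its mean over the 6 arrays (log2), is plotted against the interquartile range of all values on each array (log2; blue wild type, orange daDREAM). Kcnd2, Kcnd3 and Dpp10 are lowest on the narrowest array, daDREAM replicate 3 at 2.97, Kcnip3 and Kcnip2 are lowest on the widest, daDREAM replicate 1 at 3.49, and Dpp6 stays near 0.

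The genes whose probe sets were most like Kcnip3 1418544_at over the 6 arrays were Sptb, a spectrin (Pearson r = 0.990), Tet3, a 5-methylcytosine dioxygenase (r = 0.986), Gm26910 (r = 0.984), Sparc, a matrix glycoprotein (r = 0.981), and Serpinf1, a secreted serpin (r = 0.979). They were drawn from 13276 probe sets of other genes with a mean of at least 6 and an SD of at least 0.1, of which 1.56% had r over 0.9. Those most like Kcnd2 1422835_at were Fam135a, Ermp1 and Ctnna1, an alpha-catenin, at r = 0.998 each, followed by Lypla1, a thioesterase, and Ddx3x, an RNA helicase, also at r = 0.998. For this probe set 22.1% of 13275 candidates had r over 0.9, so its pattern was shared widely on these arrays. Within the complex, Kcnd2 and Dpp10 had the highest correlation of the brightest probe sets (r = 0.96) and Kcnip3 and Kcnd2 the lowest (r = -0.87). These probe sets of Kcnd2, Dpp10 and Kcnip3 correlated with the array interquartile range at 0.95, 0.96 and -0.85. The other Kcnip3 probe set, 1449129_a_at, did so at 0.50. Whether the pairs are related apart from array spread was not tested.

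Other proteins around the Kv4 channel were measured by lists of related genes, each gene by its brightest probe set, and 0 members of any list passed the limma test (background 0.00%). Of 17 listed partners of the channel, 14 were measured, 8 higher and 6 lower, with a median difference of 0.05 against 0.01 over all genes. The member with the largest difference was Cacna1h, a T-type calcium channel pore, at 0.38. It was dim, at 4.56 in wild type and 4.94 in daDREAM, without overlap between the genotypes, and was the 1 of the 14 with an unadjusted limma p under 0.05 (background 1.42% of all genes; adjusted p = 0.998). A second, dimmer probe set of Cacna1h differed by 0.19, and its genotypes overlapped. Cacna1g, a brighter T-type channel gene, differed by -0.07, and Kcne2, an accessory subunit abundant in choroid plexus, by 0.05 at a dim level. Of 11 kinases and other regulators 9 were measured, 4 higher and 5 lower (median -0.01), led by Nedd4l, a ubiquitin ligase, at -0.24.

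No gene listed as a relative of the members passed the test either. All 7 peptidase genes listed for sharing a name or a family with Dpp6 and Dpp10 were measured, 6 higher and 1 lower (median 0.04). The 1 lower, Dpp4, had the largest difference at a dim level, -0.22. Of 12 other voltage-gated potassium channel genes 9 were measured, 3 higher and 6 lower (median -0.04), led by Kcna6 at 0.17. All 9 neuronal calcium sensor relatives were measured, 5 higher and 4 lower (median 0.03). Ncs1, the frequenin homologue, had the largest difference at 0.42, from 9.79 in wild type to 10.21 in daDREAM. Its genotypes overlapped, and it was the 1 of the 9 with an unadjusted limma p under 0.05 (background 1.42% of all genes; adjusted p = 0.998). Further probe sets of Ncs1, both dimmer, differed by 0.13 and 0.12.

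Leaving out 1 array or adding a covariate moved several values. Without daDREAM replicate 1, 4 of the 27 reached an unadjusted p under 0.05 in limma (background 16.1% in that setting) and 0 an adjusted p under 0.05. They were Kcnd2 1422835_at at -0.39 (limma adjusted p = 0.243), Kcnd3 1435720_at at -0.32 (adjusted p = 0.287), Kcnd3 1426070_a_at at 0.31 (adjusted p = 0.279) and the dim Kcnip2 1421783_a_at at 0.57 (adjusted p = 0.215). Without daDREAM replicate 3 the same probe sets stood, in that order, at -0.0083, -0.075, 0.08 and 0.05. The mean of the hybridization controls, a level with little overlap between the genotypes, was also entered as a covariate. With it 6 of the 27 reached an unadjusted p under 0.05 in limma (background 23.2% in that setting), again with 0 after adjustment. The sign turned in 14 of the 27. Kcnd2 1422835_at then stood at 0.42, Kcnip3 1418544_at at -0.30, Kcnip2 1421783_a_at at -0.49 and Kcnd1 1421538_at at -0.38. Kcnd3 1435720_at stood at 0.09, Kcnd3 1426070_a_at at -0.24 and Dpp10 1436087_at at 0.35. Kcnip3 1449129_a_at kept its sign, at 0.30. The genotypes did not overlap in 9 of the 27 without daDREAM replicate 1 (background 32.7%), in 6 without wild-type replicate 3 (17.5%) and in 6 without daDREAM replicate 3 (14.0%). They did not in 4 after renewed quantile normalization (8.29%), in 0 after centring each array on its median (5.99%), and in 1 of the 21 with a mean of at least 5 (6.58%). In the fit with the covariate, Dpp10 1436661_at had the largest difference, 0.77 (limma adjusted p = 0.0844).

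**Figure D4:**
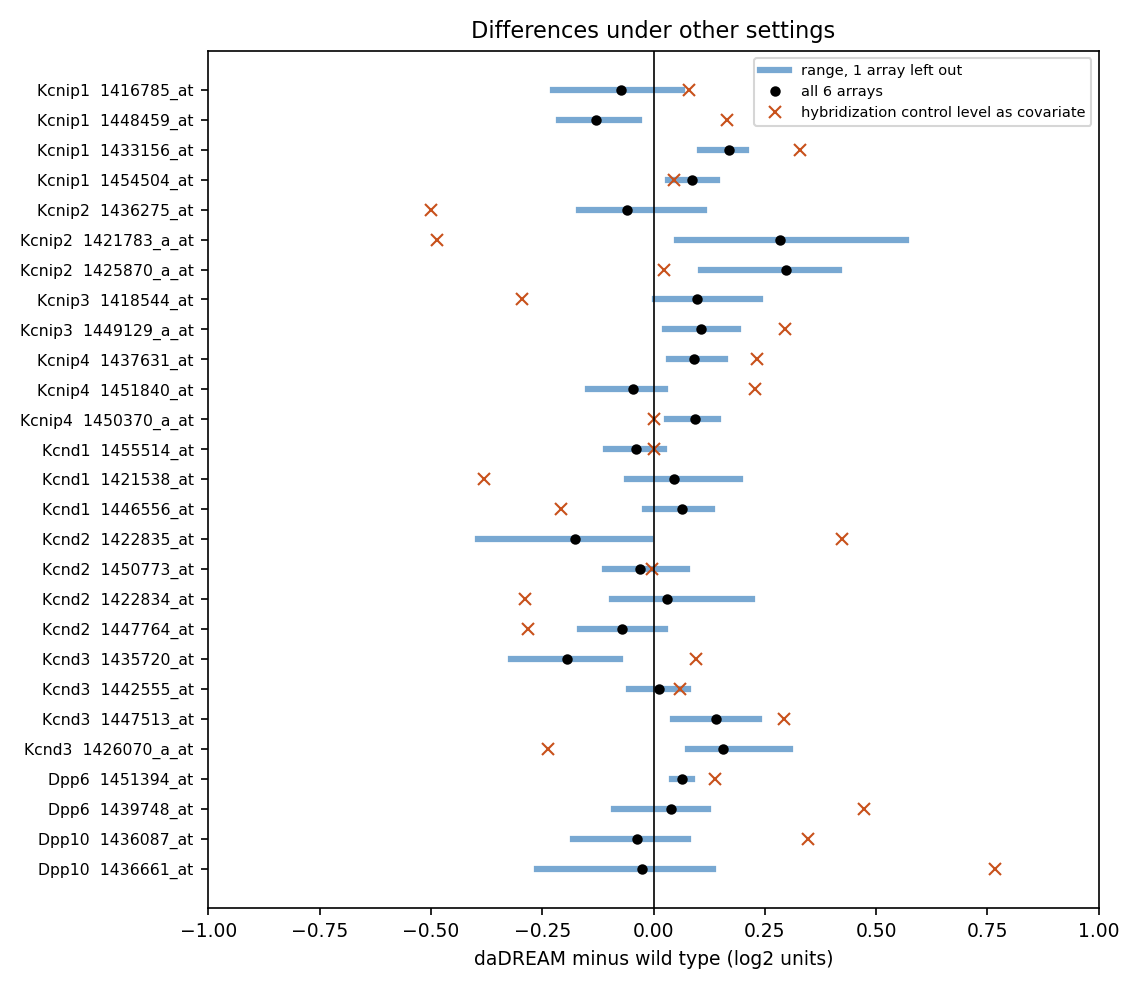
For each probe set the difference daDREAM minus wild type (log2 units) with all 6 arrays (dot) is shown with the range when 1 array is left out (bar) and the value when the hybridization controls enter as a covariate (cross). Crosses lie outside the bars for 23 of the 27 probe sets and on the other side of 0 from the dots for 14, among them Kcnip3 1418544_at at -0.30 and Kcnd2 1422835_at at 0.42.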

How the data were processed

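The values deposited by the authors are on a log2 scale, with RMA and affy named in the submitters' processing notes, and no version is stated in the sources used here. RMA equalises probe intensities before they are summarised, and the summarised values still differed in spread between arrays. It compresses differences of dim probe sets. Of 45101 probe sets, 64 controls were left out and 45037 tested with limma 3.58.1 in R 4.3.3 (2-sided, no block), adjusted by Benjamini-Hochberg over all at 0.05. The procedure was tried on simulated data with independent noise for each probe set. Differences in spread between arrays were not simulated, so that trial does not cover them. The annotation gave 34945 probe sets 1 symbol, 932 several and 9160 none, and members came from the first kind. The number of arrays, 3 per genotype, limits precision: the median SE of a member's difference was 0.15.

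Members and lists were chosen with earlier results of these data known. Named genes are every member probe set, the list member with the largest difference, the brightest markers, and the 5 genes most correlated with the brightest Kcnip3 and Kcnd2 probe sets; other genes were chosen after their values were seen. Dim means a 6-array mean not above the 95th percentile of olfactory receptor probe sets. Promoter sequences are from RefSeq.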

Additional observations from a re-analysis of the deposited data

How the results depend on the processing

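Under each alternative 0 of the 45037 probe sets, or of the 23730 with a mean of at least 5, and 0 member probe sets passed at an adjusted p under 0.05. Of 318 member differences recomputed, 298 stayed within 1 SD of the replicates and the 20 that did not all came from the hybridization control covariate. Leaving out 1 array cannot move a difference by 1 SD here. A replicate block, the trended prior and the level filter leave each difference unchanged. The count of 298 is therefore no measure of stability. Across all settings 8 of the 27 probe sets kept their sign. With the hybridization control covariate the sign turned in 14, and 6 members reached an unadjusted p under 0.05 in limma (background 23.2%). There 2 of 9 genes were lower and the median difference was 0.0945. The mean over a gene's probe sets, dim ones included, gave 2 and 0.0292. The cause was not tested. Member probe sets without overlap numbered 4 after renewed quantile normalization (background 8.29%) and 0 after median centring (5.99%). Among the 21 with a mean of at least 5 there was 1 (6.58%). With 1 array left out, those without overlap numbered 2 to 9 (background 9.91% to 32.7%), most without daDREAM replicate 1, which had the highest background. Members at an unadjusted p under 0.05 in limma numbered 0 to 4 (background 0.719% to 16.1%). Genes lower numbered 4 to 6, and the median difference was -0.05 to 0.02. Renewed quantile normalization moved the split of members to 19 higher and 8 lower (48.9% of all probe sets were lower in that setting).

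The sample titles number the replicates without saying whether equal numbers share anything. Deviations of same-numbered arrays from their genotype mean correlated at 0.12, -0.28 and 0.32. Those of differently numbered arrays ran from -0.43 (wild-type replicate 3 with daDREAM replicate 1) to 0.49 (wild-type replicate 2 with daDREAM replicate 1). With 3 arrays per genotype these values cannot decide whether the samples were paired. With the replicate number as a block, members at an unadjusted p under 0.05 in limma numbered 0 (background 2.43%). The block can change the SE and p but no difference. The 6 genes lower and the median difference of -0.04 are therefore those of the fit without it, and not a further result. The maximum of the olfactory receptor probe sets as the dim limit gave 8 dim probe sets in place of 6. With 3 arrays per genotype and no detection call, low signals cannot be separated from background.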
